A study of Arabidopsis with 12 samples.

Results

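Seedlings of the Arabidopsis double mutant mac3a3b were compared with wild type (WT) seedlings in the control samples of a study of recovery from heat, over every gene of the deposited table. The comparison used 3 mac3a3b control libraries and 3 WT control libraries of the 12 libraries in the study. The other 6 libraries came from the same genotypes sampled at 3 days; they shared in the estimate of the spread and served once, at the end, as independent libraries. Of 37825 rows in the table, 7082 were listed at 0 in all 12 libraries, and 22462 genes with at least 1 TPM (a gene's transcripts as a share of all those sequenced, corrected for length and scaled to a fixed total) in at least 3 of the 12 libraries were tested. Both genotypes were grown on Murashige and Skoog medium with 1.2% sucrose, and whole seedlings were the source of the RNA. The labels give neither the mutant alleles, nor the age of the seedlings, nor the hour of harvest, nor how many seedlings made a library. The sample titles call these seedlings control, whereas the series text speaks of 0 hours after the end of a heat treatment at 37 °C, so the labels do not settle whether the control seedlings had been heated.

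MAC3A and MAC3B are paralogous U-box proteins, the plant counterparts of yeast Prp19, a ubiquitin ligase at the centre of a protein complex that joins the spliceosome when it is activated. In Arabidopsis this assembly is known as the MOS4-associated complex, and its other members include CDC5, PRL1 and MOS4. The complex is known for roles in pre-mRNA splicing, in the accumulation of microRNAs and in plant immunity.

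Both targeted genes were lower in the libraries labelled mac3a3b. MAC3B had 9.89, 10.6 and 10.7 TPM in mac3a3b, against 76.2, 71.8 and 69.7 TPM in WT, and MAC3A had 10.3, 9.14 and 9.77 TPM in mac3a3b, against 33.4, 34.9 and 35.8 TPM in WT. The groups did not overlap for either gene. The means were 10.4 ± 0.415 TPM in mac3a3b and 72.6 ± 3.32 TPM in WT for MAC3B (SD, n = 3 each), and 9.74 ± 0.59 TPM in mac3a3b and 34.7 ± 1.19 TPM in WT for MAC3A (SD, n = 3 each). On the log2(TPM + 1) scale used throughout, the differences were -2.69 (SE 0.06, adjusted p 1.2e-10) for MAC3B and -1.73 (SE 0.07, adjusted p 1.4e-08) for MAC3A. Some signal remained at both loci, and gene-level values do not show which stretch of a transcript it came from.

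The genotype moved much of the transcriptome by small amounts and a limited set of genes by large ones. A gene was called when its adjusted p was under 0.05 in limma's moderated test with Benjamini-Hochberg adjustment over all genes tested. By this rule 6803 genes were higher in mac3a3b (30.3% of those tested) and 4313 were lower (19.2%). At least 2-fold changes were called for 575 higher genes (2.56%) and 692 lower genes (3.08%). Of the 22462 genes tested, 8107 had every mac3a3b library above every WT library and 5357 had every one below. A lack of overlap was therefore common, and where it is given below for single genes it adds little. The median log2 fold change over all tested genes was 0.06, and the quartiles were -0.19 and 0.31. This lean towards higher calls depended on how libraries were scaled. With median-of-ratios scaling the calls were 5386 higher and 5351 lower, and with quantile normalization 5962 higher and 5057 lower. All fold changes below are given on the log2(TPM + 1) scale, mac3a3b over WT, which understates the change of low genes. A gene given with a fold change was called unless the sentence says otherwise.

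The libraries of a genotype resembled each other closely. Pearson's r across genes was 0.987 to 0.989 within a genotype and 0.955 to 0.963 between genotypes, and the main axis of a principal component analysis of these 6 libraries held 67.1% of the variance. The 6 libraries listed 19565 to 19810 genes at 1 TPM or more, and their 100 most abundant genes took 27.9% to 31.4% of the total. TPM values carry no read depth, so the depth of each library is unknown. Nothing in the labels says that replicates were separate cultures, so the p-values measure only how far these libraries spread, and that spread may be technical.

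**Figure D1:**
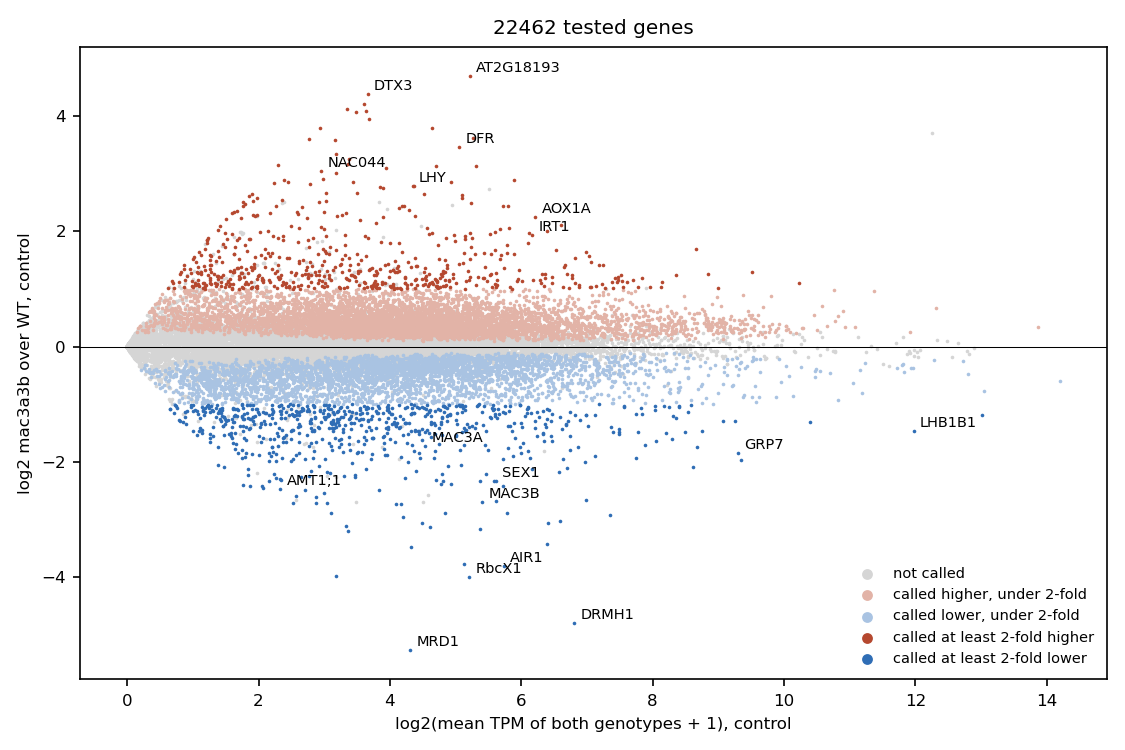
Each point is a tested gene, with log2 of the mean TPM of both genotypes plus 1 in control seedlings on the horizontal axis and the log2 fold change of mac3a3b over WT on the vertical axis; dark red points were called at least 2-fold higher (575 genes), dark blue points at least 2-fold lower (692 genes), light points called under 2-fold and grey points not called. Most genes lie near 0, and named genes such as AT2G18193 at 4.70 and DRMH1 at -4.80 lie far from it.

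Among the 20 largest increases (of genes with at least 5 TPM in the higher genotype and no overlap between libraries), 15 have no gene name in RefSeq or Swiss-Prot. At the top stood AT2G18193, a P-loop ATPase gene, with 72.6, 63.6 and 75.1 TPM in mac3a3b, against 1.61, 1.44 and 2.24 TPM in WT (log2 fold change 4.70, SE 0.10, adjusted p 1.2e-10). DTX3, a multidrug and toxin extrusion transporter, had 21.7, 21.7 and 26.1 TPM in mac3a3b, against 0.12, 0.03 and 0.32 TPM in WT (log2 fold change 4.39, SE 0.11, adjusted p 7.2e-10). DTX3 was close to silent in WT seedlings, AT2G18193 was low there, and both were far higher in all 3 mutant libraries. SQP1, a squalene epoxidase of the sterol and triterpene pathway, had 72.02, 68.99 and 68.9 TPM in mac3a3b, against 4.84, 4.45 and 5.12 TPM in WT (log2 fold change 3.61, SE 0.07, adjusted p 6.7e-11). DFR, dihydroflavonol reductase of anthocyanin synthesis, had 55.04, 60.2 and 64.7 TPM in mac3a3b, against 4.29, 5.09 and 4.31 TPM in WT (log2 fold change 3.45, SE 0.09, adjusted p 9.0e-10). AT2G21640, a gene known to respond to oxidative stress, had 74.4, 66.97 and 70.4 TPM in mac3a3b, against 6.96, 7.58 and 7.07 TPM in WT (log2 fold change 3.13, SE 0.06, adjusted p 6.7e-11). The lack of overlap in these 5 genes was part of the rule that picked them.

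Further large increases fell on a mitochondrial protein of the Cox19 type, on a transcription factor tied to DNA damage and on a protease. AT5G09570, the Cox19-like gene, had 15.8, 15.6 and 15.1 TPM in mac3a3b, against 0.73, 0.14 and 0.31 TPM in WT. NAC044, a NAC factor that acts in the plant DNA damage response, had 12.3, 13.8 and 12.4 TPM in mac3a3b, against 1.02, 0.33 and 0.75 TPM in WT (log2 fold change 3.04, SE 0.12). AT2G27420, a cysteine proteinase gene, had 27.4, 27.3 and 25.2 TPM in mac3a3b, against 2.07, 2.15 and 2.45 TPM in WT (log2 fold change 3.1, SE 0.11). These 3 genes, too, were picked by a rule that asked for no overlap.

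Switch-like differences were also counted. 23 genes averaged under 0.5 TPM in WT and at least 5 TPM in mac3a3b, and 9 of them were listed at 0 in all 3 WT libraries. AT3G05655 had 7.96, 8.11 and 7.52 TPM in mac3a3b and was listed at 0 in the 3 WT libraries, and AT1G64795 had 11.4, 11.8 and 32.1 TPM in mac3a3b and was likewise listed at 0 in WT. AT4G03675, annotated as antisense RNA, had 9.08, 41.97 and 9.91 TPM in mac3a3b and was listed at 0 in WT; a single mutant library carried most of its signal. The notes used here do not say whether counting used strand, so antisense loci cannot be separated from the genes they overlap.

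The largest decreases included genes that were abundant in WT. MRD1 (mto 1 responding down 1), a gene named for its fall in a methionine-overproducing mutant, was listed at 0 in all 3 mac3a3b libraries, against 41.6, 34.1 and 37.5 TPM in WT. DRMH1, of the dormancy-associated and auxin-repressed family, had 5.6, 7.0 and 7.87 TPM in mac3a3b, against 219, 199.7 and 227 TPM in WT (log2 fold change -4.80, SE 0.12, adjusted p 4.5e-10). RbcX1, a chaperone for assembly of the Rubisco large subunit, had 3.42, 3.1 and 3.44 TPM in mac3a3b, against 60.9, 69.9 and 74.8 TPM in WT (log2 fold change -4.00, SE 0.15, adjusted p 1.3e-08). The rule that picked these 3 genes asked for no overlap. DYL1, another dormancy-associated gene, had 32.7, 34.5 and 44.2 TPM in mac3a3b, against 299, 283 and 277 TPM in WT (log2 fold change -2.93, SE 0.21). AIR1, described from auxin-induced lateral root formation, had 4.95, 5.45 and 8.17 TPM in mac3a3b, against 109, 97.02 and 89.3 TPM in WT (log2 fold change -3.81, SE 0.16, adjusted p 2.4e-08). MEE14, a gene named from maternal-effect embryo arrest mutants, had 11.8, 12.7 and 15.66 TPM in mac3a3b, against 148, 146 and 165 TPM in WT (log2 fold change -3.43, SE 0.10). For all 3 the lowest WT library stood several-fold above the highest mutant library. A lack of overlap was part of the rule for the 20 largest decreases.

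Enzymes and stress proteins made up most of the other named decreases. AT1G15125, a methyltransferase gene, had 4.36, 2.56 and 4.66 TPM in mac3a3b, against 63.8, 61.9 and 66.6 TPM in WT (log2 fold change -3.77, SE 0.24). MLP329, a protein of the major latex family, had 15.6, 16.9 and 19.4 TPM in mac3a3b, against 155, 151 and 147 TPM in WT (log2 fold change -3.06, SE 0.15). STR15, a rhodanese-like sulfurtransferase, had 7.03, 6.25 and 8.17 TPM in mac3a3b, against 70.96, 53.2 and 96.4 TPM in WT (log2 fold change -3.16, SE 0.20). The WT spread was widest for STR15, yet its lowest WT library was far above the mutant. The rule for the largest decreases asked for such a lack of overlap. AT1G56300, a DnaJ-type co-chaperone gene, had 3.36, 3.18 and 3.04 TPM in mac3a3b, against 28.7, 32.9 and 32.96 TPM in WT (log2 fold change -2.95, SE 0.06). Under the on-or-off rule 8 genes ran the other way, averaging under 0.5 TPM in mac3a3b and at least 5 TPM in WT, and 3 of them were listed at 0 in every mutant library. AMT1;1, an ammonium transporter, had 0.34, 0.28 and 0.81 TPM in mac3a3b, against 11.1, 7.73 and 4.0 TPM in WT, and PLA2A, a patatin-like phospholipase induced in defence, had 0.39, 0 and 0.51 TPM in mac3a3b, against 5.63, 5.5 and 7.09 TPM in WT.

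**Figure D2:**
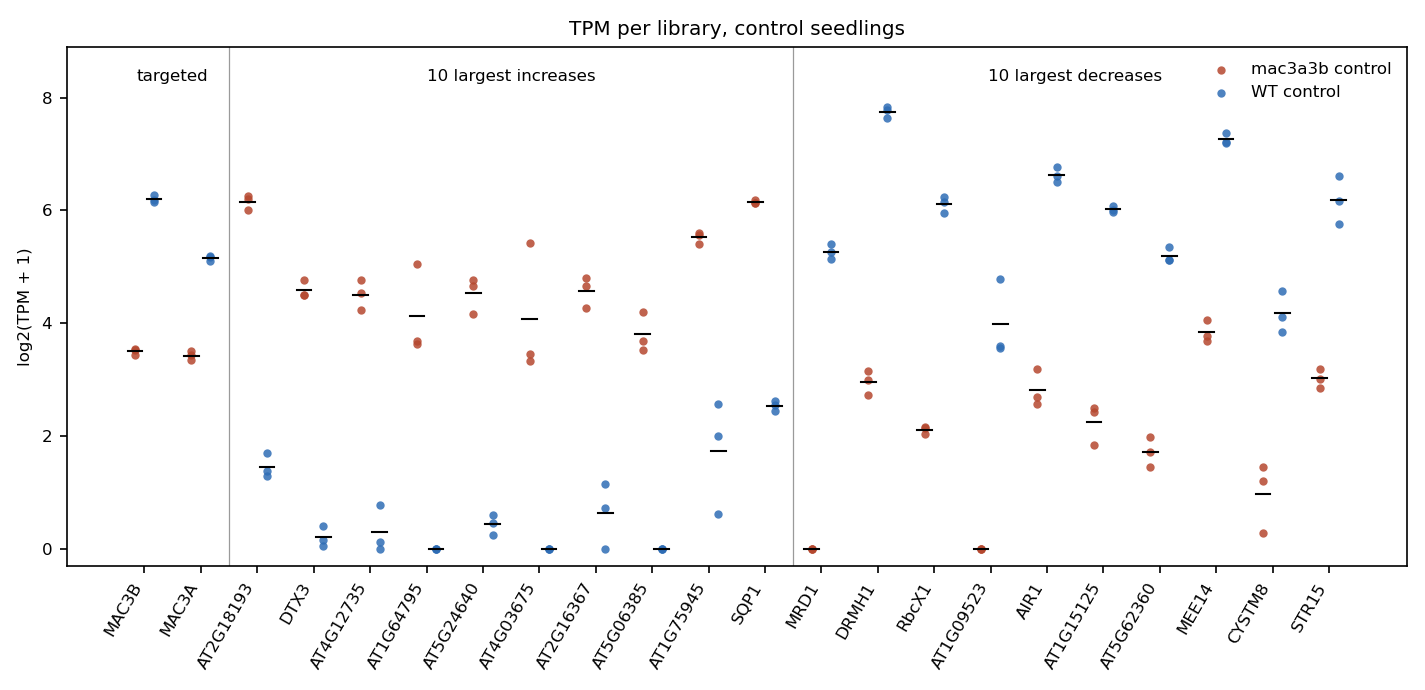
Values of log2(TPM + 1) in each of the 3 mac3a3b (red) and 3 WT (blue) control libraries for MAC3B, MAC3A and the 10 largest increases and 10 largest decreases; each point is a library and each bar the mean of 3. A lack of overlap was part of the rule that picked the largest changes. DRMH1, for example, had 5.6, 7.0 and 7.87 TPM in mac3a3b and 219, 199.7 and 227 TPM in WT.

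The gene lists used from here on were chosen with earlier results of these data known, so their counts are descriptions. Genes that plants induce when mitochondria are disturbed rose together. Of 19 tested members of a mitochondrial stress list, 15 were called higher, 9 of them at least 2-fold, and 0 lower; the median log2 fold change was 0.97, beside 0.06 over all genes. AOX1A, the alternative oxidase that lets electrons bypass the cytochrome pathway, had 124, 117 and 124 TPM in mac3a3b, against 24.7, 24.99 and 25.3 TPM in WT (log2 fold change 2.24, SE 0.04, adjusted p 6.7e-11); it was chosen after its values were seen. NAC13, a membrane-bound transcription factor of mitochondrial retrograde signalling, had 29.2, 30.96 and 30.5 TPM in mac3a3b, against 4.41, 5.07 and 4.74 TPM in WT (log2 fold change 2.44, SE 0.05, adjusted p 1.7e-10). HSP23.5, a small heat shock protein of mitochondria, had 38.6, 32.2 and 34.5 TPM in mac3a3b, against 3.43, 3.64 and 5.85 TPM in WT (log2 fold change 2.79, SE 0.14, adjusted p 8.1e-08). In all 3 genes the libraries separated by genotype. NDA1, an alternative NADH dehydrogenase of the inner membrane, had 75.3, 72.3 and 68.5 TPM in mac3a3b, against 16.01, 18.7 and 18.97 TPM in WT (log2 fold change 1.95, SE 0.09). NDB4, an external alternative dehydrogenase named after its values were seen, had 4.51, 4.32 and 5.35 TPM in mac3a3b, against 0.18, 0 and 0 TPM in WT. NDA1 and NDB4 belong to the enzymes that feed electrons into the respiratory chain without pumping protons. SOT12, a sulfotransferase of the same response, had 70.9, 49.8 and 71.8 TPM in mac3a3b, against 18.8, 19.4 and 21.4 TPM in WT (log2 fold change 1.63, SE 0.13). The log2 fold change was 1.73 for UGT74E2, a glucosyltransferase of the auxin indole-3-butyric acid.

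Chaperones of mitochondria and chloroplasts also rose. Of 23 tested members 15 were higher and 0 lower, with a median log2 fold change of 0.49. mtHsc70-1, an HSP70 of the mitochondrial matrix, had 149.8, 149.6 and 155 TPM in mac3a3b, against 63.8, 66.5 and 68.5 TPM in WT (log2 fold change 1.18, SE 0.05, adjusted p 3.1e-08). CLPB4, a mitochondrial disaggregase, changed by 0.98 on the log2 scale. By contrast the cytosolic heat response list was even, with 8 of 28 members higher and 8 lower. Each share was 28.6%, beside 30.3% higher and 19.2% lower over all genes. HSFA7A, a heat-induced transcription factor, fell by 1.09 and HSP17.4B, a cytosolic small heat shock protein, rose by 1.08 on the log2 scale. Endoplasmic reticulum stress genes were likewise mixed, 8 higher (34.8%) and 7 lower (30.4%) of 23. NAC103, a factor of the unfolded protein response, rose by 1.59 and BIP3, an inducible lumenal HSP70, by 1.34.

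The iron deficiency genes of the root were higher as a group. Of 24 tested members, 18 were called higher and 0 lower, 11 by at least 2-fold, with a median log2 fold change of 0.85; with median-of-ratios or quantile scaling 16 were higher and 1 lower. IRT1, the main iron uptake transporter of root epidermis, had 144, 69.5 and 128 TPM in mac3a3b, against 32.3, 27.9 and 23.3 TPM in WT (log2 fold change 1.94, SE 0.24, adjusted p 5.0e-05). BHLH100 had 10.6, 4.56 and 10.8 TPM in mac3a3b, against 0.21, 0.31 and 0.28 TPM in WT (log2 fold change 2.85, SE 0.26, adjusted p 5.2e-06), and bHLH38 had 16.1, 6.57 and 14.6 TPM in mac3a3b, against 0.96, 2.65 and 1.22 TPM in WT (log2 fold change 2.33, SE 0.30). The last 2 encode partner proteins of FIT, the factor that drives iron uptake genes, and bHLH38 shares near-identical stretches with its neighbour bHLH39. AT2G30766, a member of the IRON MAN peptide family that signals iron shortage, had 38.7, 17.2 and 30.3 TPM in mac3a3b, against 2.99, 6.63 and 3.95 TPM in WT (log2 fold change 2.41, SE 0.28). Replicate 2 of mac3a3b was the lowest of the 3 mutant libraries in each of these genes, yet no groups overlapped.

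The regulator FIT itself, listed as FRU, was at 11.02, 6.19 and 9.3 TPM in mac3a3b, against 8.13, 7.69 and 8.72 TPM in WT and was not called (log2 fold change 0.07, adjusted p 0.76); its groups overlapped. FRO2, the ferric reductase of the root surface, rose by 1.17 and NAS2, a nicotianamine synthase, by 1.64 on the log2 scale; these last 3 genes were chosen after their values were seen. Iron storage genes showed no such lean, with 2 of 9 higher and 1 lower. VTL5, a vacuolar iron transporter-like gene, was the lower one, with 17.3, 16.8 and 18.9 TPM in mac3a3b, against 52.3, 43.6 and 38.1 TPM in WT (log2 fold change -1.28, SE 0.15). Root marker genes, by contrast, summed to 1791 to 1967 TPM in mac3a3b and 2695 to 3108 TPM in WT over 19 genes, and 2 of the 18 tested were higher and 6 lower, or 1 and 6 with median-of-ratios scaling. Most of both sums came from a single gene, the root myrosinase PYK10, given below. The part of the root markers in results on root genes was not tested. In whole seedlings fewer cells of a type and less RNA per cell cannot be told apart.

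Some of the most even gene groups were chosen lists of secondary metabolism enzymes, and the broader KEGG pathways were less even. Of 17 flavonoid and anthocyanin enzymes 16 were higher, 11 of them at least 2-fold, and 0 lower, with a median of 1.16. The authors' broader KEGG pathway Flavonoid biosynthesis had 25 of 93 higher and 23 lower (median -0.04), or 23 and 30 with median-of-ratios scaling. LDOX, the anthocyanidin synthase, had 47.9, 58.2 and 52.3 TPM in mac3a3b, against 5.23, 7.64 and 6.59 TPM in WT (log2 fold change 2.85, SE 0.17, adjusted p 2.6e-07). TT4, chalcone synthase at the entry of the pathway, had 169, 153 and 177 TPM in mac3a3b, against 62.1, 55.8 and 53.04 TPM in WT (log2 fold change 1.53, SE 0.09). GSTF12, needed to carry anthocyanin into the vacuole, changed by 2.64 and AT5MAT, an anthocyanin malonyltransferase, by 2.09. Among regulators, MYB75, an activator of anthocyanin genes, had 7.3, 9.61 and 10.4 TPM in mac3a3b, against 1.21, 1.12 and 0.83 TPM in WT (log2 fold change 2.29, SE 0.23, adjusted p 1.2e-05). MYBL2, a repressor of the same genes, had 44.4, 49.8 and 52.3 TPM in mac3a3b, against 112, 112 and 127 TPM in WT (log2 fold change -1.25, SE 0.11, adjusted p 4.5e-06).

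Aliphatic glucosinolate genes, which build methionine-derived defence compounds, were higher in 21 of 22 cases and lower in 0; KEGG's wider Glucosinolate biosynthesis had 30 of 59 higher and 13 lower. BAT5, a plastid transporter of chain-elongated keto acids, had 87.4, 84.1 and 80.1 TPM in mac3a3b, against 22.1, 24.7 and 25.3 TPM in WT (log2 fold change 1.76, SE 0.09, adjusted p 6.8e-08). IPMI1, a subunit of isopropylmalate isomerase, had 154, 141 and 144 TPM in mac3a3b, against 57.3, 47.5 and 57.7 TPM in WT (log2 fold change 1.42, SE 0.08). Both act in the elongation of the methionine chain. CYP79F1, the entry enzyme of the core pathway, changed by 1.37. Indole glucosinolate genes divided, 5 higher (27.8%) and 6 lower (33.3%) of 18, beside 30.3% and 19.2% over all genes. With median-of-ratios scaling 3 were higher and 6 lower. IGMT1, an indole glucosinolate methyltransferase with near-identical neighbours, had 3.98, 3.35 and 3.76 TPM in mac3a3b, against 34.1, 27.8 and 29.02 TPM in WT (log2 fold change -2.73, SE 0.10), and CYP81F2, which hydroxylates the indole ring, fell by 1.07. In the authors' GO column, glucosinolate catabolic process had 1 of 21 tested genes higher and 11 lower.

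Genes of a sulfur deficiency list were higher in 12 of 20 cases and lower in 2 (median 0.45). The KEGG pathway Sulfur metabolism showed no such lean, with 21 of 54 higher and 18 lower (median 0.02), or 20 and 20 with median-of-ratios scaling. APR1, which reduces activated sulfate, had 156, 145 and 158 TPM in mac3a3b, against 70.3, 69.8 and 71.5 TPM in WT (log2 fold change 1.11, SE 0.05, adjusted p 6.2e-08). SULTR3;1, a sulfate transporter, had 11.7, 10.2 and 10.6 TPM in mac3a3b, against 4.02, 3.78 and 4.15 TPM in WT (log2 fold change 1.25, SE 0.07). Every mutant library exceeded every WT library for both genes. The KEGG pathway with the largest share of higher calls, Monobactam biosynthesis (11 of 15 higher, 1 lower), holds the ATP sulfurylases APS2 and APS3 at log2 fold changes of 0.86 and 0.73 and the aspartate kinase AK3 at 0.93; plants do not make monobactams, and the name comes from shared enzymes.

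**Figure D3:**
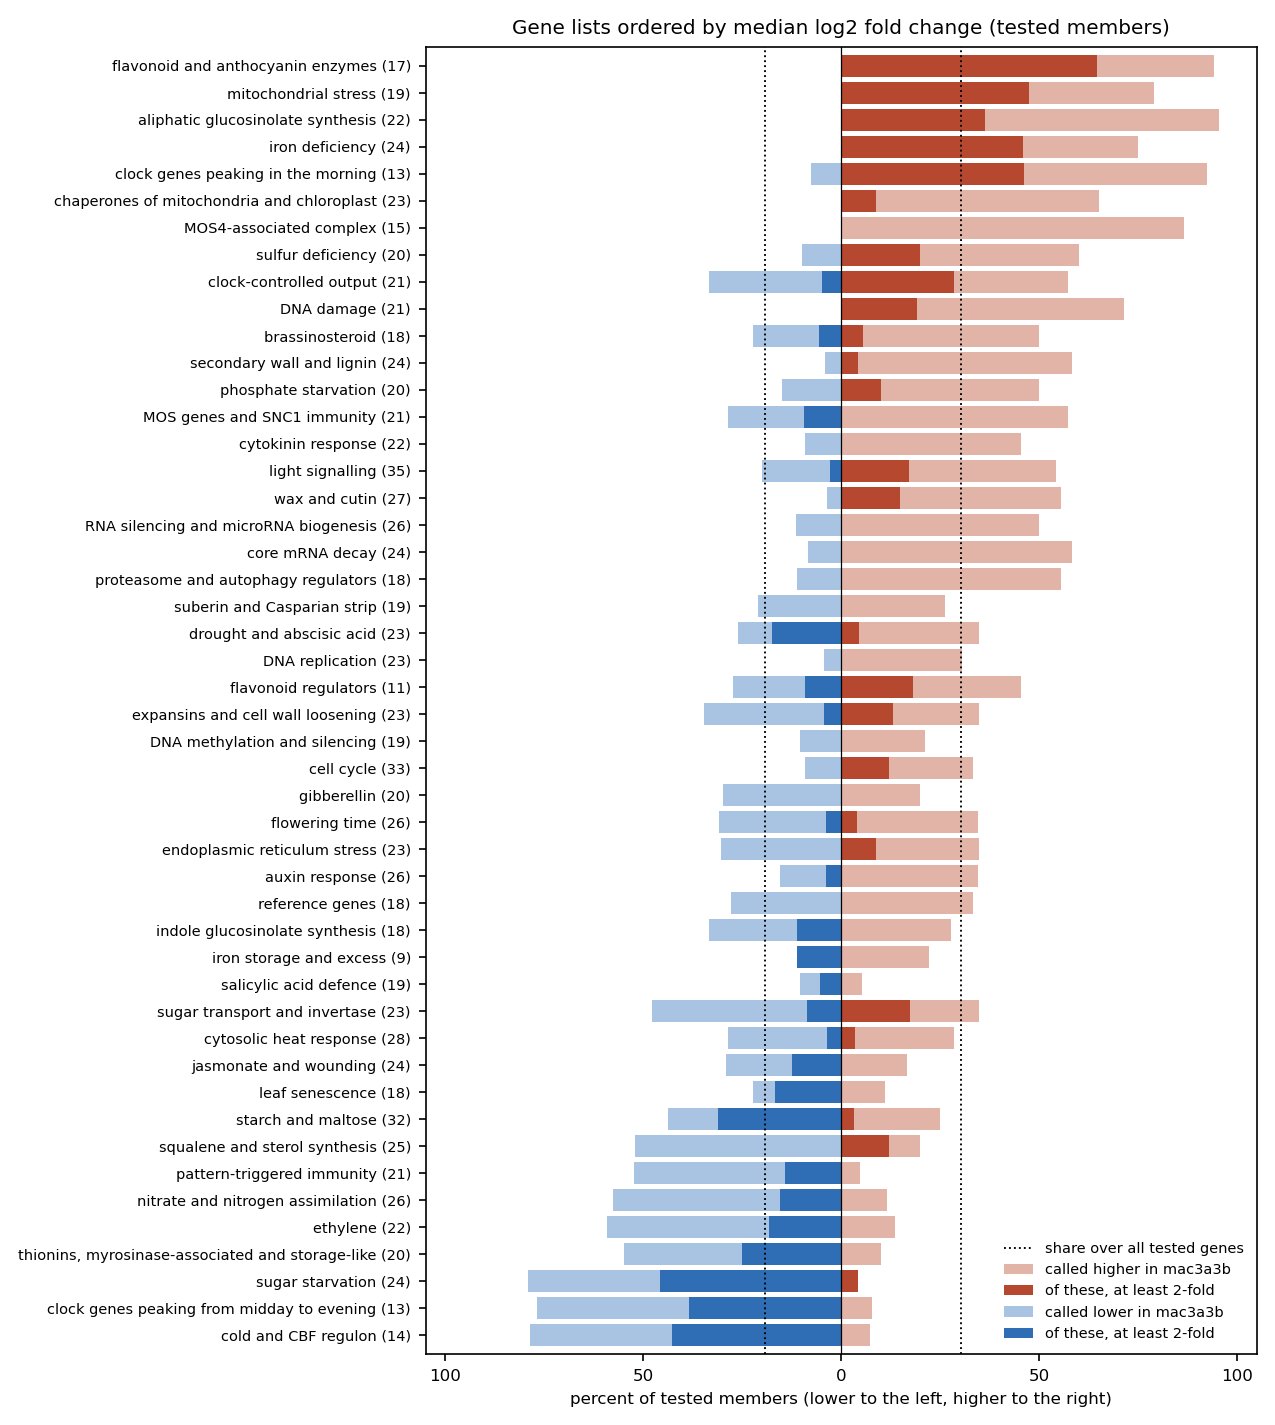
For each gene list (number of tested members in brackets), the percent of members called higher in mac3a3b than in WT control seedlings runs to the right in red and the percent called lower to the left in blue, with the part past 2-fold darker and dotted lines at the percent over all tested genes (30.3% higher, 19.2% lower). Lists are ordered by median log2 fold change, from flavonoid and anthocyanin enzymes (16 of 17 higher) at the top to the cold and CBF regulon (11 of 14 lower) at the foot.

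The circadian clock genes differed by their phase. Of 13 genes that peak in the morning 12 were higher and 1 lower (median 0.70), and of 13 that peak from midday to evening 1 was higher and 10 lower (median -0.88). LHY had 35.2, 35.1 and 33.2 TPM in mac3a3b, against 4.63, 3.62 and 4.22 TPM in WT (log2 fold change 2.79, SE 0.09, adjusted p 4.3e-09), and CCA1 had 57.6, 58.1 and 59.2 TPM in mac3a3b, against 13.2, 14.4 and 15.04 TPM in WT (log2 fold change 1.97, SE 0.08). These paired MYB factors of the morning loop stood higher in every mutant library. PRR5, a daytime pseudo-response regulator that represses them, had 6.6, 6.21 and 7.34 TPM in mac3a3b, against 29.3, 29.04 and 31.4 TPM in WT (log2 fold change -2.0, SE 0.08, adjusted p 1.6e-08). FKF1, a blue-light receptor of the afternoon, had 0.46, 0.6 and 0.74 TPM in mac3a3b, against 5.39, 4.66 and 4.45 TPM in WT (log2 fold change -1.87, SE 0.09). PCL1, also known as LUX, an evening-complex factor, fell by 1.58. The hour of harvest of each group is not given, and a difference of hour and a difference of genotype cannot be told apart here.

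Clock outputs moved in both directions, with 12 of 21 higher and 7 lower. GRP7, an evening-phased RNA-binding protein that shapes splicing, had 271, 251 and 301 TPM in mac3a3b, against 942, 949.8 and 1069 TPM in WT (log2 fold change -1.85, SE 0.09, adjusted p 6.0e-08). Its relative RBG8 fell by 1.00. COL2, a CONSTANS-like factor, rose by 1.89 and BBX18, a B-box protein, by 1.96 on the log2 scale. HYH, a bZIP factor of light signalling, had 57.3, 50.8 and 62.04 TPM in mac3a3b, against 13.4, 17.3 and 18.6 TPM in WT (log2 fold change 1.73, SE 0.14). In the wider light signalling list 19 of 35 were higher and 7 lower, or 17 higher and 12 lower with median-of-ratios scaling. ELIP1, an early light-induced protein of thylakoids, had 29.6, 31.98 and 38.95 TPM in mac3a3b, against 5.74, 6.34 and 6.23 TPM in WT (log2 fold change 2.27, SE 0.16), and ELIP2 changed by 2.43. LZF1, a B-box factor that promotes greening, fell by 1.35.

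Carbon metabolism genes fell in many places, most clearly in starch breakdown. Of 32 genes of starch and maltose metabolism 8 were higher and 14 lower, with 1 and 10 past 2-fold. SEX1, the glucan water dikinase that opens the granule for degradation, had 16.2, 14.3 and 15.4 TPM in mac3a3b, against 81.4, 78.7 and 82.2 TPM in WT (log2 fold change -2.33, SE 0.09, adjusted p 1.6e-08). PHS2, a cytosolic glucan phosphorylase, had 28.3, 27.7 and 28.6 TPM in mac3a3b, against 102, 92.4 and 94.4 TPM in WT (log2 fold change -1.73, SE 0.12). DPE1, the plastid disproportionating enzyme, had 10.1, 12.8 and 12.6 TPM in mac3a3b, against 40.8, 39.1 and 40.5 TPM in WT (log2 fold change -1.69, SE 0.12). The WT libraries were all more than 2-fold above the mutant libraries in these genes. ISA3, a debranching isoamylase, had 6.91, 7.65 and 6.97 TPM in mac3a3b, against 24.7, 25.01 and 24.3 TPM in WT (log2 fold change -1.65, SE 0.06). AMY3, a plastid alpha-amylase chosen after its values were seen, had 29.6, 29.5 and 30.6 TPM in mac3a3b, against 83.4, 83.8 and 85.01 TPM in WT (log2 fold change -1.46, SE 0.06). Both enzymes act on glucans inside the chloroplast. SEX4, a glucan phosphatase, fell by 1.35, PWD, the second dikinase, by 1.04, and DPE2, the cytosolic maltose transferase, by 1.02. The exception past 2-fold was GBSS1, the starch synthase that makes amylose, with 86.6, 88.9 and 94.2 TPM in mac3a3b, against 19.9, 21.4 and 21.6 TPM in WT (log2 fold change 2.05, SE 0.08, adjusted p 1.4e-08). CT-BMY, a chloroplast beta-amylase, changed by 0.97.

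Sugar starvation markers fell almost as a block, 19 of 24 lower and 1 higher (median -0.67). DIN10, a raffinose synthase family gene induced in darkness, had 34.3, 27.8 and 38.8 TPM in mac3a3b, against 175, 133 and 159 TPM in WT (log2 fold change -2.18, SE 0.14, adjusted p 4.0e-07). ASN1, the asparagine synthetase of carbon-starved tissue, fell by 1.41. The exception was DIN9, a mannose-6-phosphate isomerase, at 1.01. Among transporters, SAG29, a SWEET family sugar exporter also known as SWEET15, had 16.8, 14.6 and 13.3 TPM in mac3a3b, against 2.64, 1.57 and 2.75 TPM in WT (log2 fold change 2.27, SE 0.17). STP1, a hexose uptake carrier, had 29.7, 28.7 and 31.5 TPM in mac3a3b, against 75.3, 62.7 and 69.5 TPM in WT (log2 fold change -1.18, SE 0.12). Carriers as a class were divided, 8 of 23 higher and 11 lower.

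Pathways that burn amino acids and fatty acids for carbon had mostly lower calls. In the authors' KEGG pathway column, Valine, leucine and isoleucine degradation had 18 of 83 tested genes higher and 38 lower, and Fatty acid degradation had 11 of 63 higher and 27 lower. ADH1, alcohol dehydrogenase, had 25.7, 44.02 and 49.1 TPM in mac3a3b, against 130.4, 108 and 127 TPM in WT (log2 fold change -1.64, SE 0.21). ALDH5F1, succinic semialdehyde dehydrogenase of the GABA shunt, had 9.59, 9.34 and 11.3 TPM in mac3a3b, against 33.4, 33.04 and 31.8 TPM in WT (log2 fold change -1.61, SE 0.06). Neither gene had overlapping groups. Starch and sucrose metabolism had 50 of 212 higher and 68 lower, and Sphingolipid metabolism 7 of 46 higher and 21 lower (3 and 22 with median-of-ratios scaling). The GO term for the oxidative branch of the pentose-phosphate shunt had 2 of 15 higher and 8 lower.

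Nitrate-related genes were mostly lower. Of 26 members of a nitrate and nitrogen list 3 were higher and 15 lower (median -0.36), and the GO term response to nitrate had 4 of 29 higher and 19 lower, 10 of those by at least 2-fold. WR3, a partner protein of nitrate transporters also known as NRT3.1, had 17.98, 15.4 and 18.02 TPM in mac3a3b, against 38.4, 37.2 and 44.6 TPM in WT (log2 fold change -1.18, SE 0.12). GRXS5, one of the nitrate-responsive glutaredoxins, had 0.79, 0.25 and 1.12 TPM in mac3a3b, against 7.52, 6.46 and 7.82 TPM in WT (log2 fold change -2.29, SE 0.18), and its near copies GRXS4 and GRXS3 changed by -2.12 and -1.98. The groups did not overlap for any of the 4 genes. HRS1, a nitrate-induced repressor of phosphate starvation genes, fell by 1.15. KEGG's Nitrogen metabolism was near even, 12 of 45 higher and 14 lower. Among the 3 listed genes that rose was AMT1;2, an ammonium transporter, at 0.70. Phosphate starvation genes, tested beside them, had 10 of 20 higher and 3 lower.

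**Figure D4:**
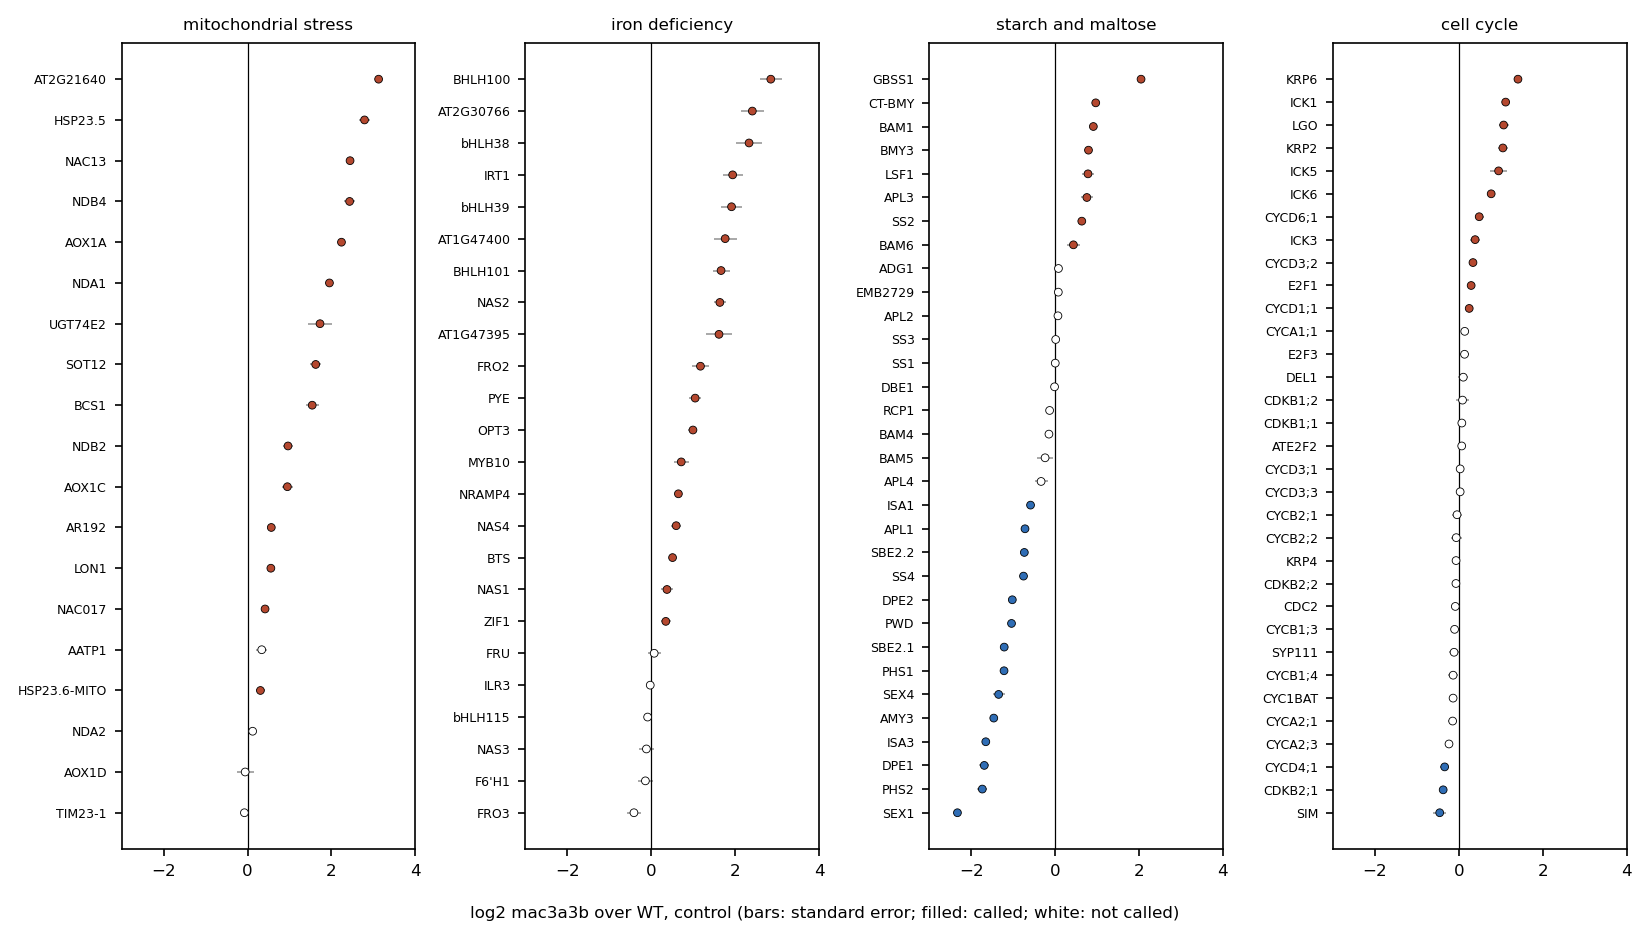
Log2 fold change of mac3a3b over WT control seedlings with its SE for every tested member of the mitochondrial stress, iron deficiency, starch and maltose, and cell cycle lists; red points were called higher, blue called lower and white not called. The mitochondrial and iron panels hold 15 and 18 higher calls and no lower calls, the starch panel 8 higher and 14 lower, and the cell cycle panel 11 higher and 3 lower with a median of 0.07 that becomes -0.01 with median-of-ratios scaling.

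Photosynthesis genes moved in both directions. Photosystem subunits had 8 of 71 higher and 18 lower. LHB1B1, a light-harvesting protein of photosystem II with a near-identical copy, had 2246, 2132 and 2034 TPM in mac3a3b, against 6225, 5662 and 5886 TPM in WT (log2 fold change -1.47, SE 0.16). A set of mesophyll markers, to which such antenna genes belong, summed to 78255 to 81633 TPM in mac3a3b and 89419 to 93886 TPM in WT over 14 genes; 4 of them were higher and 5 lower, and its median of -0.08 became 0.17 with quantile normalization. Its part in results on leaf genes was not tested. By contrast the chloroplast NAD(P)H dehydrogenase, which cycles electrons around photosystem I, had 12 of 16 tested genes higher and 1 lower under its GO term. NdhM, a nuclear-encoded subunit of it, had 197, 187 and 188 TPM in mac3a3b, against 58.4, 65.97 and 57.1 TPM in WT (log2 fold change 1.64, SE 0.13), and NdhT changed by 1.20. SIGE, a plastid sigma factor also known as SIG5, had 40.9, 38.6 and 37.1 TPM in mac3a3b, against 15.2, 15.4 and 15.8 TPM in WT (log2 fold change 1.28, SE 0.05).

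3 abundant transcripts of photorespiration, the recycling of the side product of Rubisco, were higher. HPR, the peroxisomal hydroxypyruvate reductase, had 712, 677 and 653 TPM in mac3a3b, against 337, 338 and 332 TPM in WT (log2 fold change 1.02, SE 0.11). CAT2 (AT4G35090), the leaf catalase that removes photorespiratory hydrogen peroxide, had 635, 596 and 623 TPM in mac3a3b, against 191, 178 and 201 TPM in WT (log2 fold change 1.70, SE 0.07, adjusted p 2.3e-08). GLDP1, the P protein of glycine decarboxylase, had 653, 629 and 662 TPM in mac3a3b, against 256, 264 and 288 TPM in WT (log2 fold change 1.26, SE 0.09). CAT2 and GLDP1 were chosen after their values were seen, and none of the 3 genes had overlapping libraries. The KEGG pathway that holds these steps, Glyoxylate and dicarboxylate metabolism, had 38 of 118 higher and 31 lower, close to the 30.3% higher over all genes.

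Genes that make, process and translate RNA rose broadly by small steps. Of 396 cytosolic ribosomal protein genes 284 were higher and 23 lower (median 0.35); with median-of-ratios scaling 257 were higher and 32 lower. Of 47 tested genes of the small-subunit processome, which matures ribosomal RNA, 42 were higher and 0 lower, and of 18 genes of RNA polymerase I 16 were higher and 0 lower. EDA7, a member of the processome set, had 24.2, 25.2 and 24.5 TPM in mac3a3b, against 10.2, 12.4 and 12.5 TPM in WT (log2 fold change 1.02, SE 0.07). NOP56, a core protein of box C/D small nucleolar particles, had 185, 193 and 188 TPM in mac3a3b, against 98.4, 99.02 and 104 TPM in WT (log2 fold change 0.90, SE 0.05). TIF3B1, a subunit of translation initiation factor eIF3, had 107, 108 and 107 TPM in mac3a3b, against 59.98, 59.6 and 61.5 TPM in WT (log2 fold change 0.82, SE 0.05). These changes were under or near 2-fold. The libraries of each gene did not overlap, as was so for 8107 of the 22462 tested genes in this direction.

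The same lean held for the nuclear pore, basal transcription and RNA processing. Nucleocytoplasmic transport had 96 of 149 higher and 3 lower, Basal transcription factors 39 of 63 and 1, and RNA polymerase 35 of 58 and 2. By product family, splicing factors had 90 of 139 higher and 11 lower, helicases 100 of 156 higher and 10 lower, and pentatricopeptide repeat proteins, which edit and process organelle RNA, 177 of 446 higher and 14 lower. NUP98B, a nucleoporin, rose by 1.05, and NRPB9A, a small subunit of RNA polymerase II, by 1.04 on the log2 scale. Proteasome subunits had 50 of 74 higher and 1 lower. Under median-of-ratios scaling splicing factors had 75 higher and 13 lower, helicases 75 and 11, pentatricopeptide repeat proteins 140 and 21, and the proteasome 35 and 1.

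**Figure D5:**
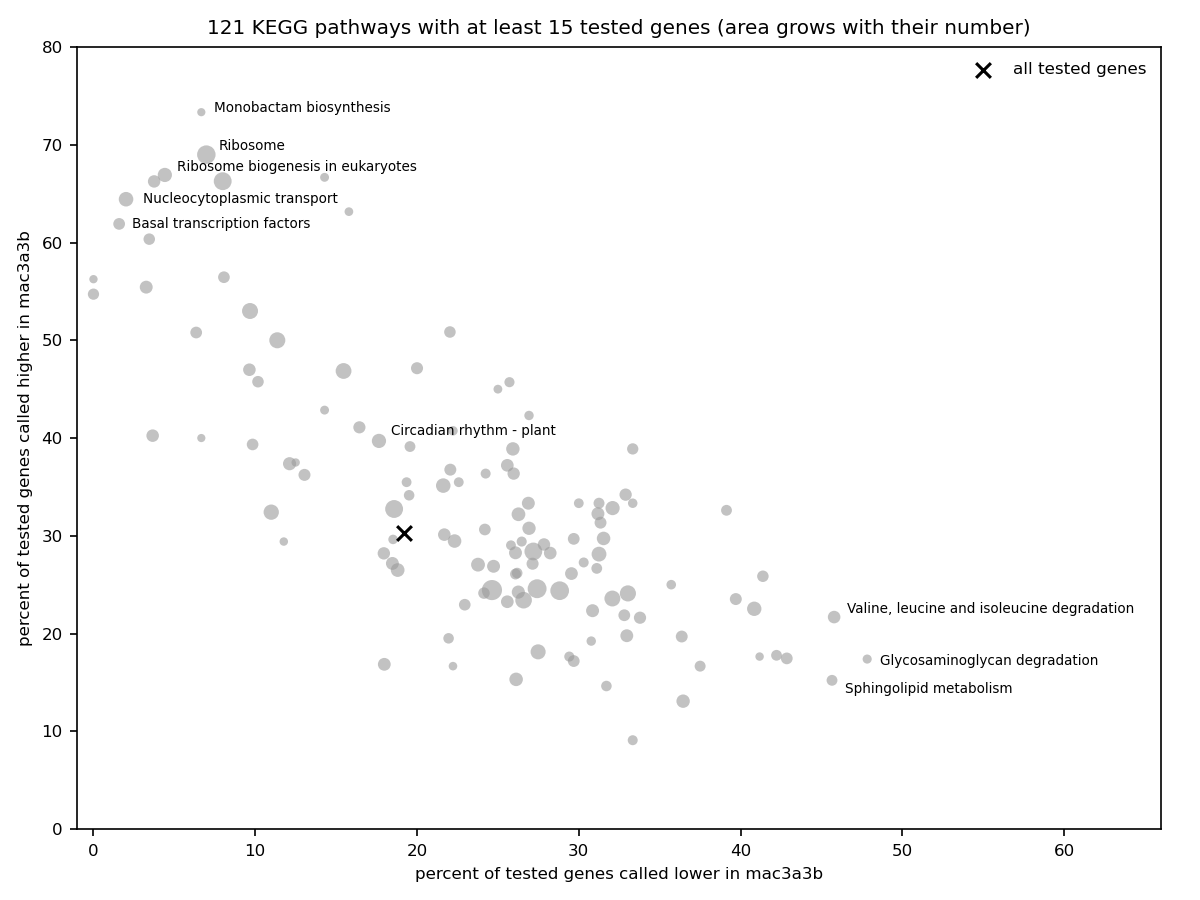
Each point is a KEGG pathway of the authors' annotation with at least 15 tested genes (121 pathways), placed by the percent of its genes called lower (horizontal) and called higher (vertical) in mac3a3b than in WT control seedlings, with a cross at the percent over all genes (19.2% lower, 30.3% higher). Nucleocytoplasmic transport (96 of 149 higher) lies at the upper left, and Valine, leucine and isoleucine degradation (38 of 83 lower) at the lower right.

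Partners of MAC3A and MAC3B in the complex were slightly higher in the mutant. 13 of 15 other members tested were higher, 0 lower and none by 2-fold (median 0.47). MOS4 had 58.8, 64.8 and 64.03 TPM in mac3a3b, against 40.6, 38.7 and 41.8 TPM in WT (log2 fold change 0.62, SE 0.05). MEE5, another listed member, rose by 0.77. PRL1, a WD40 protein of the core, had 59.2, 64.2 and 60.2 TPM in mac3a3b, against 42.03, 43.2 and 47.1 TPM in WT (log2 fold change 0.47, SE 0.05). CDC5, the MYB-type partner, had 49.0, 50.7 and 49.98 TPM in mac3a3b, against 41.4, 42.4 and 46.8 TPM in WT (log2 fold change 0.19, SE 0.06), a difference whose call was lost with median-of-ratios scaling (0.11) and without mac3a3b replicate 2 (0.18), WT replicate 1 (0.16) or WT replicate 2 (0.18). PRL1 and CDC5 were named after their values were seen. In the microRNA biogenesis list 13 of 26 genes were higher and 3 lower. DCL1, the enzyme that cuts microRNA precursors, fell by 0.26, and AGO1, which loads microRNAs, by 0.19, whereas HEN1, their methyltransferase, rose by 0.57. Core mRNA decay genes had 14 of 24 higher and 2 lower, or 9 and 4 with median-of-ratios scaling.

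DNA damage genes were higher in 15 of 21 cases and lower in 0 (median 0.34); 10 were higher and 1 lower with median-of-ratios scaling. GMI1, a gene strongly induced by double-strand breaks, had 12.3, 13.4 and 13.5 TPM in mac3a3b, against 1.22, 1.18 and 1.22 TPM in WT (log2 fold change 2.67, SE 0.09, adjusted p 6.8e-09). PARP2, a poly(ADP-ribose) polymerase of break repair, had 16.7, 18.3 and 17.5 TPM in mac3a3b, against 5.68, 4.94 and 5.14 TPM in WT (log2 fold change 1.57, SE 0.12). TSO2, a ribonucleotide reductase subunit, changed by 0.71. SOG1, the transcription factor that directs this response, had 8.91, 8.6 and 9.18 TPM in mac3a3b, against 8.08, 8.94 and 8.59 TPM in WT and was not called (adjusted p 0.61); it was named after its values were seen. Together with NAC044, described above, NAC085 had 1.54, 1.64 and 1.68 TPM in mac3a3b, against 0.11, 0 and 0 TPM in WT; this factor was likewise named after its values were seen.

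Inhibitors of the cell cycle were the cell cycle genes that rose most. Of 33 tested cell cycle genes 11 were higher (33.3%, close to the 30.3% over all genes) and 3 lower. With median-of-ratios scaling 9 were higher and 5 lower, and the list's median of 0.07 became -0.01. KRP6 had 23.99, 19.1 and 20.04 TPM in mac3a3b, against 6.33, 7.73 and 7.82 TPM in WT (log2 fold change 1.41, SE 0.09, adjusted p 5.8e-07), and ICK1 had 35.9, 31.2 and 31.9 TPM in mac3a3b, against 15.3, 13.8 and 14.97 TPM in WT (log2 fold change 1.12, SE 0.10). LGO, a SIAMESE-related inhibitor that sets giant cells in sepals, had 69.5, 64.6 and 64.2 TPM in mac3a3b, against 29.1, 32.7 and 31.3 TPM in WT (log2 fold change 1.07, SE 0.12). KRP6 and ICK1 belong to the family that binds cyclin-dependent kinases, as does KRP2, which had 35.98, 36.7 and 39.6 TPM in mac3a3b, against 18.1, 18.4 and 16.2 TPM in WT and was named after its values were seen. Opposite in direction was CDKB2;1, a mitotic kinase, which fell by 0.37. DNA replication genes had 7 of 23 higher (30.4%, the same as over all genes to within 1%) and 1 lower (4.35%, against 19.2% over all genes).

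Immunity genes differed by pathway. Pattern-triggered immunity genes had 1 of 21 higher and 11 lower, and KEGG's Plant-pathogen interaction 104 of 423 higher and 116 lower. ABCG36, a plasma membrane transporter of penetration resistance, had 79.03, 65.3 and 84.4 TPM in mac3a3b, against 187, 161 and 176 TPM in WT (log2 fold change -1.19, SE 0.10), FRK1, a flagellin-induced receptor kinase, fell by 1.59 and FLS2, the flagellin receptor, by 1.09. Salicylic acid genes had 1 of 19 higher and 2 lower, or 0 and 5 with median-of-ratios scaling. Jasmonate genes had 4 of 24 higher and 7 lower, or 3 and 11 with median-of-ratios scaling. A list built on the MOS genes and SNC1 immunity, the setting in which the complex was described, had 12 of 21 higher and 6 lower. In it NDR1, a membrane protein needed by several immune receptors, fell by 1.11 and RPP4, an immune receptor, by 1.07, whereas ADR1, a helper receptor, rose by 0.76.

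Several families of small secreted proteins and wall enzymes were mostly lower. Of 308 defensin genes in the table only 34 were tested, and of these 3 were higher and 17 lower, 13 of them by at least 2-fold (median -0.76). AT3G59930, one of them, had 8.84, 6.01 and 8.36 TPM in mac3a3b, against 46.8, 40.95 and 38.6 TPM in WT (log2 fold change -2.31, SE 0.22). Peroxidases had 8 of 81 higher and 36 lower, and PER32 had 87.0, 75.2 and 104.7 TPM in mac3a3b, against 384, 313 and 324 TPM in WT (log2 fold change -1.93, SE 0.16). Both genes were lower in every mutant library. Proteins like the major latex proteins had 3 of 20 higher and 13 lower, and MLP328 had 37.5, 29.8 and 33.7 TPM in mac3a3b, against 231, 224 and 197 TPM in WT (log2 fold change -2.66, SE 0.13). Several of these families are known from roots, and the summed root markers were lower in mac3a3b, as given above. PYK10, a root myrosinase that made up most of that sum, was at 1611, 1624 and 1762 TPM in mac3a3b, against 2840.3, 2461 and 2460.5 TPM in WT. PYK10 was chosen after its values were seen. Xyloglucan endotransglucosylases, which cut and rejoin wall polymers, had 4 of 29 higher and 15 lower, receptor-like kinases 63 of 366 higher and 110 lower (48 and 134 with median-of-ratios scaling), and nitrate and peptide transporters 29 of 120 higher and 52 lower.

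Cold-regulated genes were lower, with 1 of 14 higher and 11 lower (median -0.93). COR47, a dehydrin, had 73.7, 60.8 and 78.8 TPM in mac3a3b, against 201, 177 and 179 TPM in WT (log2 fold change -1.38, SE 0.09), and LTI30, another dehydrin, had 19.4, 17.1 and 24.8 TPM in mac3a3b, against 60.4, 54.5 and 52.4 TPM in WT (log2 fold change -1.42, SE 0.12). Drought and abscisic acid genes were mixed, 8 higher (34.8%) and 6 lower (26.1%) of 23, not far from the 30.3% and 19.2% over all genes. PYL6, an abscisic acid receptor, had 3.75, 3.22 and 5.96 TPM in mac3a3b, against 18.9, 17.2 and 16.3 TPM in WT (log2 fold change -1.83, SE 0.18), and RD20, a drought-induced peroxygenase, rose by 1.16. Ethylene genes had 3 of 22 higher and 13 lower. ERF6, an ethylene response factor of stressed leaves, had 4.8, 4.04 and 5.52 TPM in mac3a3b, against 14.5, 14.5 and 14.4 TPM in WT (log2 fold change -1.43, SE 0.19). Brassinosteroid genes had 9 higher and 4 lower of 18 (8 and 6 with median-of-ratios scaling), cytokinin genes 10 and 2 of 22, and gibberellin genes 4 and 6 of 20. Auxin response genes had 9 and 4 of 26 (8 and 6 with that scaling), and their median of 0.02 became -0.06 under it. Their shares of 34.6% higher and 15.4% lower were near those over all genes, 30.3% and 19.2%.

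Cuticle and trichome genes leaned upward. Wax and cutin genes had 15 of 27 higher and 1 lower, and KEGG's Cutin, suberine and wax biosynthesis 22 of 78 higher and 14 lower. MYB16, an activator of cuticle genes, had 41.9, 42.8 and 39.2 TPM in mac3a3b, against 14.2, 14.6 and 12.9 TPM in WT (log2 fold change 1.51, SE 0.10), and WSD1, a wax ester synthase, rose by 1.15. Trichome markers had 6 of 10 higher and 1 lower, and they summed to 48.7 to 58.2 TPM in mac3a3b and 29.5 to 33.9 TPM in WT over 11 genes; their part in the cuticle result was not tested. MYB0, the trichome factor GLABRA1, rose by 1.29 and TRY, an inhibitor of trichome fate, by 1.17. Guard cell markers summed to 282 to 285 TPM in mac3a3b and 219 to 226 TPM in WT, but 5 of 14 were higher and 1 lower, with a median of -0.01. Meristem markers summed to 75.5 to 83.5 TPM in mac3a3b and 65.6 to 68.4 TPM in WT. Vascular markers overlapped, at 465 to 536 TPM in mac3a3b and 445 to 479 TPM in WT. Expansins, which loosen cell walls, had 12 of 25 higher and 4 lower by product family, whereas a list of expansins and other wall-loosening genes had 8 of 23 higher and 8 lower. EXPA1 had 504, 454 and 424 TPM in mac3a3b, against 189, 199 and 196 TPM in WT (log2 fold change 1.24, SE 0.13). Genes of the secondary wall and lignin had 14 of 24 higher and 1 lower, yet KEGG's broader Phenylpropanoid biosynthesis had 54 of 224 higher and 74 lower.

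Most called genes of sterol synthesis were lower, unlike SQP1. Of 25 genes of squalene and sterol synthesis 5 were higher and 13 lower. CAS1, cycloartenol synthase at the entry to plant sterols, had 27.9, 28.7 and 28.4 TPM in mac3a3b, against 57.9, 56.7 and 55.3 TPM in WT (log2 fold change -0.97, SE 0.07). Besides SQP1, the squalene epoxidases SQE6 and SQE3 rose by 1.31 and 1.00, and SQE2 fell by 0.87. Glutathione S-transferases, which join glutathione to toxins, had 19 of 59 higher and 13 lower, or 17 and 19 with median-of-ratios scaling. GSTU25 stood out among them with 110.3, 80.8 and 88.6 TPM in mac3a3b, against 13.3, 18.3 and 17.61 TPM in WT (log2 fold change 2.44, SE 0.17).

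Gene types differed in their counts of calls. Of 875 long noncoding RNA genes tested 147 were higher (16.8%) and 61 lower (6.97%). Both shares were below those over all genes, 30.3% and 19.2%. Of 20481 protein-coding genes 6552 were higher and 4138 lower (5174 and 5143 with median-of-ratios scaling). At least 2-fold calls numbered 75 higher and 25 lower among the long noncoding RNAs (8.57% and 2.86%) and 469 and 632 among protein-coding genes (2.29% and 3.09%). Transposable element genes had 30 higher (6.96%) and 16 lower (3.71%) of 431 tested, out of 3845 in the table, again below the shares over all genes. A noncoding class that leaned the other way was ncRNA, with 9 of 115 higher and 33 lower. Longer classes had a larger share of higher calls of any size, whereas calls of at least 2-fold were most frequent in the shortest class. The shortest of 4 length classes had 222 at least 2-fold higher (3.94%) and 287 lower (5.1%). The longest had 99 (1.76%) and 80 (1.42%). Counts of any size follow. Genes of 2176 bases or more, the longest of 4 classes of like size, had 2071 of 5615 higher and 881 lower, and those of 1084 bases or less, the shortest class, 1287 of 5628 higher and 1021 lower. The 5 chromosomes were alike, with 29.1% to 31.8% of genes higher and 17.79% to 20.9% lower.

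The control differences could be read against the same genotypes at 3 days, since the contrasts share no libraries. At 3 days 5403 genes were higher in mac3a3b than in WT (24.1%) and 13185 were lower (58.7%). Of the 575 genes at least 2-fold higher in control seedlings, 131 were again higher at 3 days (22.8%), 301 were lower (52.3%) and 143 were not called. Of the 692 at least 2-fold lower, 451 were again lower (65.2%), 88 were higher (12.7%) and 153 were not called. These shares stand beside a 3 day contrast in which most calls were lower for all genes, and they depended on scaling. With median-of-ratios scaling 173 of 482 were again higher and 464 of 848 again lower, and with quantile normalization 195 of 527 and 356 of 797.

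Among genes called in controls at any size, 70.5% of the lower ones were lower again at 3 days, and 50.8% of the higher ones were lower. Beside these shares, all 14 starch and maltose genes called lower in control seedlings were lower at 3 days too, and SEX1 changed by -2.39 there, against -2.33 in controls. All 21 aliphatic glucosinolate genes called higher in controls were called lower at 3 days. So were the 11 flavonoid enzymes that had risen at least 2-fold. Of 9 mitochondrial stress genes at least 2-fold higher in controls 5 were higher, 2 lower and 2 not called at 3 days. Of 11 such iron deficiency genes 2 were higher, 1 lower and 8 not called. A gene near 0 in both genotypes can hardly be called. FRO2, an iron gene without a call at 3 days, averaged 0.05 TPM in mac3a3b and 0.147 TPM in WT there. Individual genes show the range. AT2G18193, the largest increase in controls, was at 0.14 at 3 days and was not called (adjusted p 0.2). GBSS1 changed by -4.70 at 3 days, against 2.05 in controls. COR47 changed by 1.43 at 3 days, against -1.38 in controls.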

How the data were processed

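RNA was selected by oligo dT from whole seedlings and sequenced on Illumina libraries, per the labels' protocols. RSEM and the TAIR10 build are named in the submitters' processing notes, without versions or settings. The deposited table holds TPM values per gene and library, made by the authors, with their KEGG pathway and GO columns; the sources used here give neither read depth nor whether counting used strand. Every sample column was used.

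Genes with at least 1 TPM in at least 3 of the 12 libraries were tested (22462 of 37825 rows). log2(TPM + 1) was fitted with limma 3.58.1 in R 4.3.3, with an intensity trend, over all 12 libraries with 1 mean per group (8 residual degrees of freedom) and Benjamini-Hochberg adjustment over all genes tested. A gene was called at an adjusted p under 0.05. The smallest p of an exact permutation test of 3 against 3 libraries is 0.1, so none is given. Summaries and figures were made in Python 3.11.15 with pandas 2.3.3, numpy 2.4.6 and matplotlib 3.10.9.

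The members and the 57 gene lists were chosen with earlier results of these data known, so list counts are descriptions with no test. Of their members 957 matched a RefSeq symbol, 80 a RefSeq synonym, 133 a Swiss-Prot name in the table and 67 a locus, and 21 matched nothing. The text names MAC3A and MAC3B, genes from the 20 largest called changes each way (a mean of at least 5 TPM in the higher genotype, no overlap), from called genes under 0.5 TPM in 1 genotype and at least 5 TPM in the other (up to 8 each way), from the 3 largest called changes per list and direction, and from the 10 KEGG pathways and 10 GO terms with the largest share of calls of each kind. Any other gene is said to be named after its values were seen. Replicate numbers did not pair the libraries. Alternatives changed the libraries fitted, pseudocount, filter, scaling, trend, the rows sharing the total and the replicate block, and left out each control library in turn. No sequence is shown, and promoter motifs were not analysed.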

Additional observations from a re-analysis of the deposited data

Results flagged for a closer look

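For 11 of the genes with the largest control differences, the mac3a3b over WT log2 fold change differed between control seedlings and 3 days in direction, and the difference passed limma's interaction test. That test holds the same control difference by which these genes were picked, so passing it adds little. 8 of them were higher in mac3a3b control seedlings. Such a turn was common: 301 of the 575 genes at least 2-fold higher in controls were called lower at 3 days with the interaction called. Over all tested genes 58.7% were lower at 3 days. DTX3 changed by -3.93 at 3 days, against 4.39 in controls. AT4G03675, the antisense RNA, changed by -2.62 at 3 days, against 4.07 in controls, and AT2G16367 by -2.03 at 3 days, against 3.95 in controls. SQP1 reached -0.34 at 3 days, against 3.61 in controls. Its 3 day sign is that of TPM as deposited. Median-of-ratios size factors at 3 days were 0.845 to 0.9 in mac3a3b and 1.27 to 1.29 in WT. Dividing by them raises the 3 day fold changes. The 3 day value of SQP1 under that scaling is not given here, so its change of direction rests on the deposited scaling alone. DFR changed by -3.15 at 3 days, against 3.45 in controls. AT3G05655 stood at -2.14 at 3 days, against 3.15 in controls, and AT2G27420 at -3.1 at 3 days, against 3.1 in controls. In control seedlings AT4G03675 and AT3G05655 were listed at 0 in all 3 WT libraries, so the size of their values depends on the pseudocount. NAC044 changed by -2.33 at 3 days, against 3.04 in controls.

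The other 3 were lower in mac3a3b control seedlings and higher at 3 days. Of the 692 genes at least 2-fold lower in controls, 88 were called higher at 3 days with the interaction called. DRMH1 changed by 0.64 at 3 days, against -4.80 in controls. STR15 changed by 0.84 at 3 days, against -3.16 in controls. AT1G19530, a gene with no name in RefSeq, changed by 1.86 at 3 days, against -3.06 in controls.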

How the results depend on the processing

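No called gene named in the text changed direction under any alternative run, but some class leans did, as given at the end. With a pseudocount of 0.1 the genes called at least 2-fold changed numbered 2059, 966 higher and 1093 lower, against 1267, 575 and 692 with a pseudocount of 1. Median-of-ratios scaling gave 5386 higher and 5351 lower calls, sharing 5383 and 4313 with the 6803 and 4313 reported. Leaving out each control library in turn gave 9841 to 10131 calls (5997 to 6306 higher, 3754 to 4036 lower), against 11116, and 1246 to 1352 calls of at least 2-fold (564 to 597 higher, 649 to 772 lower).

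Same-numbered libraries of the 2 genotypes did not deviate together (r across genes -0.03, -0.02 and -0.04), and none resembled its own number best. With the replicate block 6711 genes were higher and 4247 lower, 576 and 694 of them by at least 2-fold.

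Of 473 named genes, where tested, at most 17 lost their control call under any single alternative. The median of 6 of 57 lists changed sign with median-of-ratios scaling and of 5 with quantile normalization. Before rescaling none of these medians exceeded 0.08 in size; the mesophyll median went furthest, to 0.17 with quantile normalization. With median-of-ratios scaling glutathione S-transferases had 17 higher and 19 lower calls, against 19 and 13, and RING and U-box proteins 64 and 84, against 88 and 64. TPM gives no depth, so the precision of low genes is unknown, and TPM is a share of the total, so broad shifts in RNA amount cannot be seen.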

Other observations

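1 very abundant transcript did not follow the genotypes. AT2G08665, a long noncoding RNA gene, had 7619, 6992 and 4514 TPM in mac3a3b, against 3.25, 4535 and 5694 TPM in WT (log2 fold change 3.70, adjusted p 0.16 by limma). WT replicate 1 stood apart from the other 5 libraries, and the gene was named after its values were seen.

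Pollen and seed markers were near 0, as in vegetative seedlings. Of 14 pollen markers 7 were listed at 0 in every mac3a3b control library and 8 in every WT control library, and their sums were 18.8 to 22.2 TPM in mac3a3b and 13.3 to 14.6 TPM in WT. Of 18 seed markers 4 were listed at 0 in mac3a3b and 6 in WT, with sums of 3.78 to 6.91 TPM in mac3a3b and 3.05 to 4.15 TPM in WT.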
